A study of Mus musculus with 17 samples.

Results

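Tk1, Enho, Pde4b and Carmil1 are 4 genes whose messenger RNA was lower in the livers of mice given the dioxin TCDD than in those given its corn oil vehicle. They were chosen on measured values of these arrays, for a fall with TCDD where the aryl hydrocarbon receptor (AHR) was present and no such fall where it was absent. Every probe set that the array annotation maps to 1 of the 4 symbols or a synonym was taken, which gave 12 of 45037 gene probe sets and 4 of the 18193 genes that the array reads with a probe set of their own. Tk1 and Carmil1 have 1 probe set each, Enho has 4 and Pde4b has 6. Because the contrasts between these groups chose the genes, their differences below are descriptions. Where the calls of a model over all probe sets are counted for them, those counts describe the choice too and test nothing.

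Liver RNA was read on 17 Affymetrix whole-genome mouse arrays, on which each probe set is a group of short probes against one transcript. The groups were wild type (Ahr+/+) male C57BL/6J mice with corn oil (5 arrays) or with TCDD (6 arrays), and male Ahr-/- mice in a C57BL/6J background with corn oil (3 arrays) or with TCDD (3 arrays). TCDD was given once at 1000 µg/kg by gavage, and all livers were taken 19 h after gavage. Wild type mice, bred in Kuopio, were aged 15 weeks, and Ahr-/- mice, bought directly from The Jackson Laboratory, were aged 10 weeks, so age and source went with genotype and cannot be told apart from it. Replicates are numbered in the labels with no statement that each is a separate mouse, so the p-values given for other genes measure only how far these samples vary, a spread that may be technical. In whole liver, fewer cells of a type and less RNA per cell cannot be told apart.

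AHR is a transcription factor that lies in the cytosol until it binds a dioxin, then enters the nucleus, pairs with ARNT and binds DNA at the xenobiotic response element. Cyp1a1 is its best known induced target, and many other liver transcripts fall after TCDD. The 4 genes act in unrelated processes. Tk1 encodes the cytosolic thymidine kinase, which salvages thymidine for DNA synthesis and is made mainly by cells that replicate DNA. Enho encodes adropin, a secreted peptide linked in mice to sugar and fat metabolism. Pde4b encodes a phosphodiesterase that breaks down cyclic AMP, the second messenger of glucagon and adrenaline. Carmil1 encodes a scaffold protein that binds actin capping protein and loosens its hold on filament ends.

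Promoter windows were available for Tk1 (1 window) and Pde4b (4 windows) in RefSeq on GRCm38.p6, each running from 250 bases before an annotated start to 50 after it. They are shown because AHR acts by binding DNA and these are the promoter letters at hand for the members. Capitals mark every match to GCGTG, the core of the xenobiotic response element, or to TGACG, the core of the cyclic AMP response element, on either strand. The Tk1 window lies on the minus strand at chr11:117825965-117826264, and the Pde4b window shown, at chr4:102421305-102421604 on the plus strand, is the one of its 4 that holds either core.
Tk1: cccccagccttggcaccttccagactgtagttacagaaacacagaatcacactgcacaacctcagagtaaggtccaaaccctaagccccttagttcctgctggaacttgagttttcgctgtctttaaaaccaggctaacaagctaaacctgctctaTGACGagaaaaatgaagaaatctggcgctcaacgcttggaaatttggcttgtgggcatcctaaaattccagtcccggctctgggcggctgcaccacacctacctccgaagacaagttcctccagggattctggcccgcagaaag
Pde4b: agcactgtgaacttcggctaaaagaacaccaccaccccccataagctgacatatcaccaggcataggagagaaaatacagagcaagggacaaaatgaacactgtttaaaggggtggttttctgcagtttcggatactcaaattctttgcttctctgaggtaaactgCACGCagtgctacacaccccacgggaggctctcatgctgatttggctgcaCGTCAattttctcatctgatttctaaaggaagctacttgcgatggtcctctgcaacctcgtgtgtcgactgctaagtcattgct
The Tk1 window holds TGACG once, 94 bases before the start, and GCGTG on neither strand. The Pde4b window holds GCGTG on the opposite strand, read as CACGC, 84 bases before the start, and TGACG on the opposite strand, read as CGTCA, 34 bases before it. The longer form TNGCGTG, which contains GCGTG, and the E2F-type motif TTTGGCG were in none of the 5 windows, and CCAAT was in 2 windows of Pde4b. Of 32851 mouse windows of the same length, 32.4% held GCGTG, 5.07% TNGCGTG, 20.8% TGACG, 1.56% TTTGGCG and 37.4% CCAAT. These matches are descriptions of the letters and no binding was measured.

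Some arrays stood apart. Cyp1a1 had a mean log2 level of 5.95 ± 0.71 (SD, n = 5) in wild type livers with corn oil and 15.20 ± 0.06 (SD, n = 6) with TCDD, so every wild type TCDD array showed the response to the dose. In knockout livers given TCDD, Cyp1a1 read 12.64, 5.32 and 5.34, against 5.81 to 7.18 with corn oil, so replicate 1 of that group stood apart, and the knockout differences of the 4 genes are also given without it. Wild type TCDD replicate 6 had a difference of 1.98 between the 3′ and 5′ Gapdh control probe sets (log2), where all other arrays gave -0.17 to -0.01, and had the largest residual spread. The Ahr probe set read 9.89 ± 0.38 (SD, n = 5) in wild type and 9.50 ± 0.21 (SD, n = 3) in knockout livers with corn oil; the labels do not place its probes relative to the deletion, so it does not check the genotype. The median of all values was 3.11, and the 4 genes, each at the probe set with its highest mean, lay above that on every array.

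Tk1 fell furthest of the 4. Its log2 level with corn oil in wild type livers was 7.11, 7.0, 7.08, 7.03 and 6.84, and with TCDD it ran from 4.60 through a median of 5.21 to 5.36. In knockout livers it was 7.64, 7.89 and 7.86 with corn oil and 7.49, 8.09 and 7.80 with TCDD. Every wild type TCDD array lay below every other array, and all 6 knockout arrays lay above all wild type arrays. The difference with TCDD was -1.92 ± 0.14 (SE) on the log2 scale in wild type, a 3.79-fold lower level, and -0.003 ± 0.19 in knockout, with a 95% interval from -0.41 to 0.40. With corn oil the knockout level was 0.78 ± 0.17 higher than wild type, or 1.72-fold. The order of the groups was wild type TCDD, wild type corn oil and then the 2 knockout groups, which did not differ beyond their spread.

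Enho, the adropin gene, was read by 2 bright probe sets. At 1428739_at wild type livers with corn oil gave log2 levels of 9.23, 8.78, 9.45, 8.84 and 8.90, and those with TCDD ran from 7.43 through a median of 7.68 to 8.15. Knockout livers gave 9.23, 9.08 and 9.19 with corn oil and 9.49, 9.58 and 9.64 with TCDD. The wild type groups did not overlap, and in knockout livers the order was the other way, with all 3 TCDD arrays above all 3 corn oil arrays. The difference with TCDD was -1.34 ± 0.14 (SE) in wild type, a 2.54-fold lower level, and 0.41 ± 0.18 in knockout, with a 95% interval from 0.01 to 0.80. That knockout difference was not called (limma, adjusted p = 0.88). Groups of 3 arrays can also separate where the difference is tiny. At the dim Enho probe set 1433382_at all 3 knockout TCDD arrays lay below all 3 corn oil arrays, with a difference of -0.006. At 1452893_s_at, which has the suffix for probes shared by several transcripts, the wild type difference was -1.71 ± 0.12, or 3.26-fold lower, and the knockout difference 0.35 ± 0.16. There the levels were 8.26, 7.64, 8.47, 7.94 and 7.83 with corn oil in wild type, and 6.16 to 6.38 with TCDD. The 6 wild type TCDD arrays lay closer together at this probe set than at the brighter one. From low to high the Enho groups at 1428739_at were wild type TCDD, wild type corn oil, knockout corn oil and knockout TCDD, and the 2 corn oil groups overlapped, with a genotype difference of 0.13 ± 0.16.

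Pde4b varied most of the 4 genes between wild type arrays of a group. At 1422474_at wild type livers with corn oil gave log2 levels of 7.92, 6.87, 7.35, 6.64 and 7.52, and those with TCDD ran from 4.07 through a median of 5.84 to 6.64. Knockout livers gave 8.87, 8.62 and 8.82 with corn oil and 8.74, 8.48 and 8.33 with TCDD. The wild type groups all but touched, with the highest TCDD array 0.0022 below the lowest corn oil array, and all 6 knockout arrays lay above all wild type arrays. The difference with TCDD was -1.69 ± 0.38 (SE) in wild type, a 3.23-fold lower level, and -0.25 ± 0.51 in knockout. The 95% interval of the knockout difference, from -1.34 to 0.83, overlaps that of the wild type difference, from -2.50 to -0.89. The genotype difference with corn oil was 1.51 ± 0.45, or 2.85-fold higher in knockout.

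The second bright Pde4b probe set, 1422473_at, gave a wild type difference of -1.68 ± 0.27 and a knockout difference of -0.46 ± 0.37. Its corn oil levels in wild type were 6.68, 5.89, 6.13, 5.78 and 6.24, and its TCDD levels ran from 3.92 through a median of 4.10 to 5.29. Replicates 2 and 4 with TCDD were the highest of their group, at 5.27 and 5.29, and the other 4 lay at or below 4.10. In knockout livers it read 7.65, 7.67 and 7.39 with corn oil and 7.49, 7.02 and 6.84 with TCDD, again above all wild type arrays. The order of the groups was the same at both probe sets, with the 2 knockout groups highest and overlapping.

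Carmil1 had a lower level in knockout than in wild type livers with corn oil, unlike Tk1 and Pde4b. Its log2 levels in wild type were 6.56, 6.55, 6.96, 6.65 and 7.15 with corn oil, and from 4.41 through a median of 5.44 to 5.82 with TCDD. In knockout livers they were 6.04, 6.14 and 5.85 with corn oil and 4.99, 6.25 and 6.39 with TCDD. The wild type groups did not overlap, and both knockout groups lay below all wild type corn oil arrays. The difference with TCDD was -1.53 ± 0.27 (SE) in wild type, a 2.88-fold lower level, and -0.13 ± 0.36 in knockout, with a 95% interval from -0.91 to 0.65. The genotype difference was -0.76 ± 0.33, so the knockout corn oil level lay between those of the wild type groups. Knockout TCDD replicate 1, the array with high Cyp1a1, gave the 4.99, within the range of the wild type TCDD arrays. Without it the knockout difference of Carmil1 was 0.31, all of its remaining knockout TCDD arrays lying above the corn oil arrays.

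**Figure D1:**
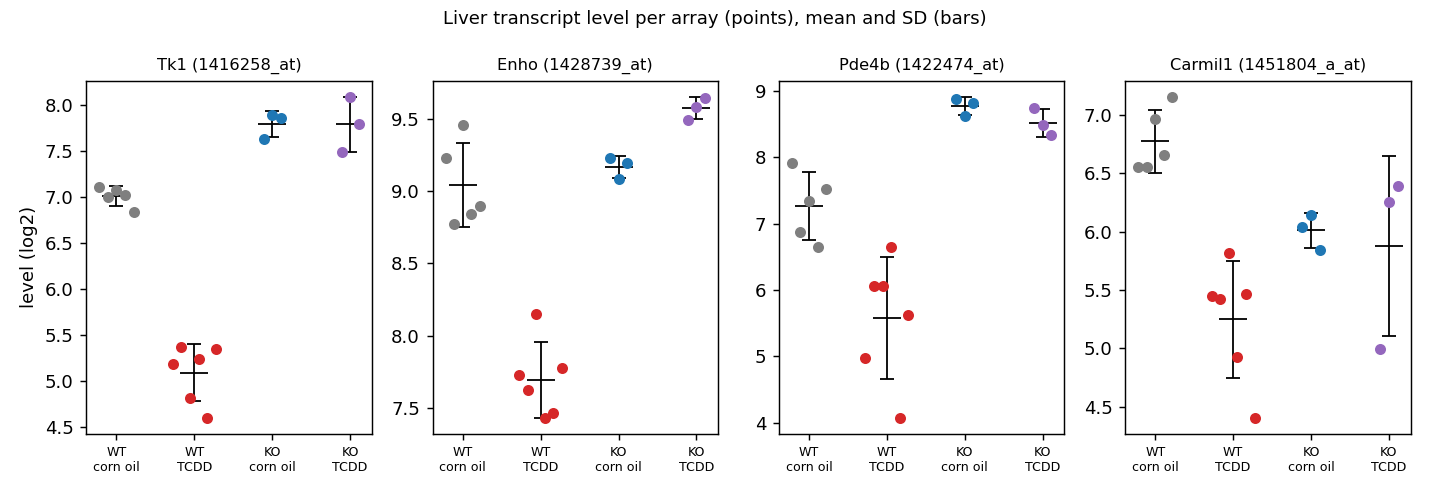
Log2 level of Tk1, Enho, Pde4b and Carmil1 on each array (points) at the probe set with the highest mean, by group (WT wild type, KO AHR knockout), with bars for the mean and SD. The wild type TCDD arrays lie below the wild type corn oil arrays in each panel, by 0.0022 at the nearest pair for Pde4b, and the Carmil1 knockout arrays lie below the wild type corn oil arrays.

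The other 6 probe sets were dim and did not show the fall. They belong to Enho (1454585_at and 1433382_at) and Pde4b (1446577_at, 1444731_at, 1442700_at and 1447718_at), and read 1.47 to 3.51 on all arrays, near or below the median of all values. Their wild type differences ran from -0.07 to 0.03. One of them, 1442700_at for Pde4b, read 3.27, 3.23 and 2.39 with corn oil and 2.95, 2.71 and 3.29 with TCDD in knockout livers, and 2.27 to 2.32 on the wild type arrays. It was higher in every knockout array than in any wild type array, as the bright Pde4b probe sets were. Its genotype difference with corn oil, 0.67 ± 0.16, was not called (limma, adjusted p = 0.058). At the other dim Pde4b probe sets that difference ran from 0.005 to 0.019, and the corn oil arrays of the genotypes overlapped.

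**Figure D2:**
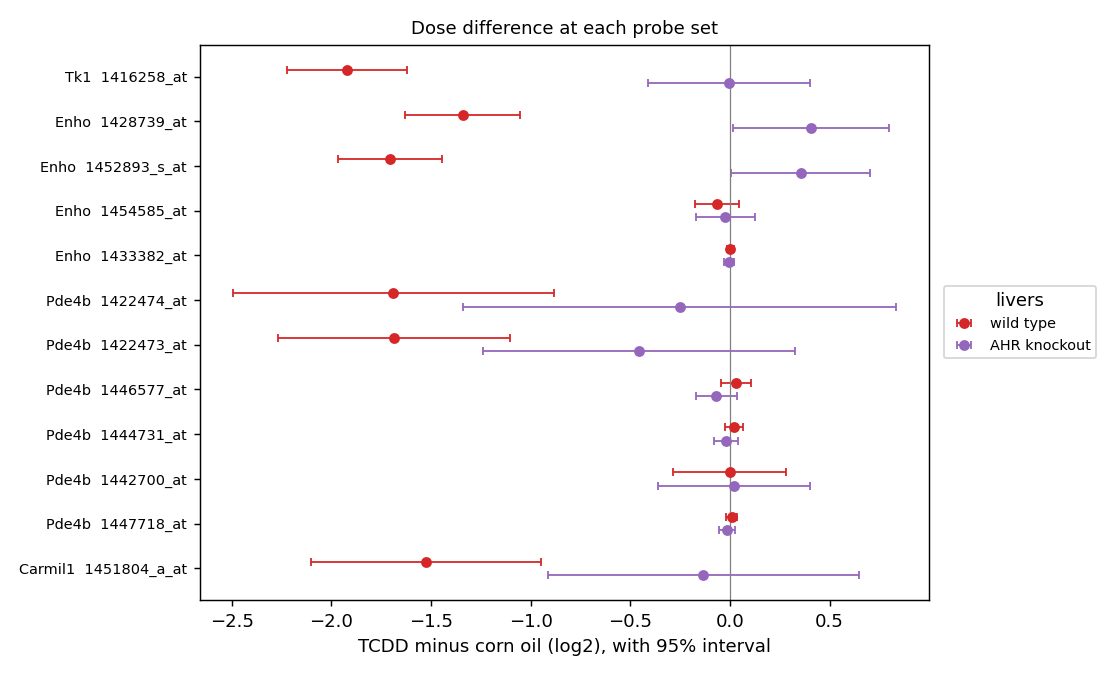
Difference between TCDD and corn oil (log2) at each of the 12 probe sets in wild type and AHR knockout livers, with 95% intervals from the model. The 6 bright probe sets lie from -1.92 to -1.34 in wild type, and the 6 dim ones lie near 0 in both genotypes.

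A linear model over all arrays and probe sets (limma, with Benjamini-Hochberg adjustment and a threshold of 0.05) gives the background for these values. For lower levels with TCDD in wild type it called 6 of the 12 probe sets, against 1.63% of all probe sets, and the representative probe set of each of the 4 genes. By size of the fall among 18193 genes Tk1 ranked 5, Pde4b 9, Carmil1 15 and Enho 29. Of all genes, 42 were called with a fall of at least 2-fold, so the members are 4 of many. In knockout livers limma called none of the 12, against 0.0133% of all probe sets, and 2 of the 12, both of Enho and both higher with TCDD, had an unadjusted p under 0.05, where 2.8% of all probe sets did. For higher levels in knockout livers with corn oil 2 of the 12 were called, Tk1 and 1422473_at of Pde4b, against 0.873%. The genotype call of Tk1 was lost with scan day as a block, where its difference was 0.70, and without any 1 of 7 arrays. The wild type call of Pde4b was lost without wild type corn oil replicate 1, where its difference was -1.53. These counts describe the choice of the genes and show nothing beyond it.

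The difference between the TCDD effects of the genotypes also took part in the choice of the genes. Taken as knockout minus wild type, it was 1.92 ± 0.24 (SE) on the log2 scale for Tk1, 1.75 ± 0.23 for Enho, 1.44 ± 0.63 for Pde4b and 1.39 ± 0.45 for Carmil1. The model called 3 of the 12 probe sets, those of Tk1 and the bright pair of Enho, against 0.251% of all probe sets. Pde4b and Carmil1 were not called. Since the choice used this difference, neither outcome tests whether a fall depended on the receptor. Of the 42 genes with a called fall of at least 2-fold, 38 had no overlap between the wild type groups. Of these 38, 14 had a called difference of effects above 0. Without knockout TCDD replicate 1 the difference was 2.07 for Tk1, 1.79 for Enho, 1.32 for Pde4b and 1.84 for Carmil1, and Carmil1 was then called. The knockout difference itself was 0.15 for Tk1, 0.45 for Enho and -0.37 for Pde4b without that array. On it Tk1 at 7.49, Enho at 9.49 and Pde4b at 8.74 lay above all wild type TCDD arrays.

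**Figure D3:**
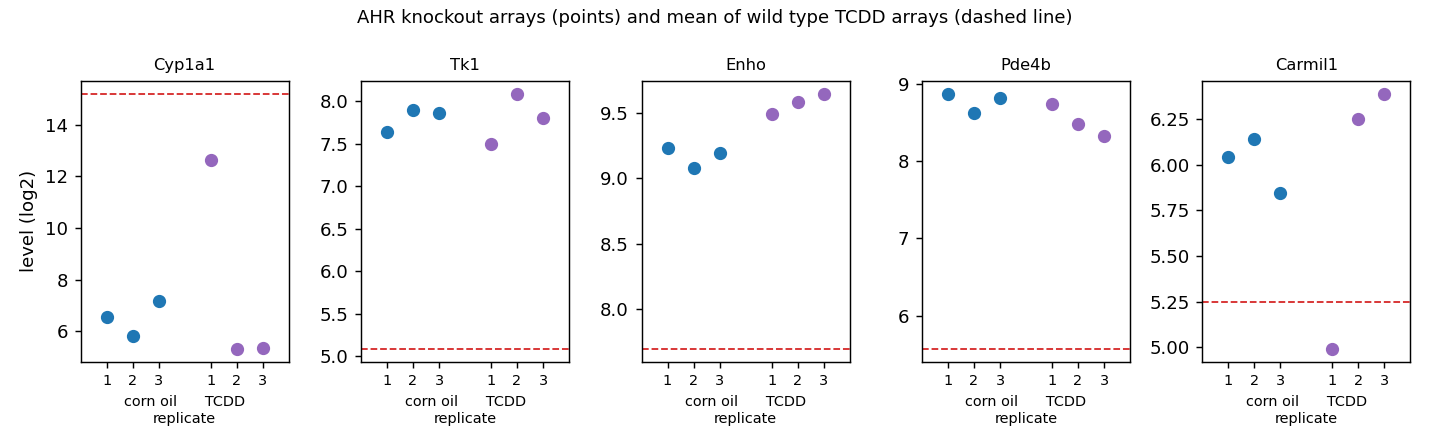
Log2 level of Cyp1a1 and the 4 genes on each AHR knockout array (points), with the mean of the wild type TCDD arrays as a dashed line. Replicate 1 with TCDD is high for Cyp1a1 (12.64) and low for Carmil1 (4.99), while its Tk1, Enho and Pde4b points lie with the other knockout arrays.

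**Figure D4:**
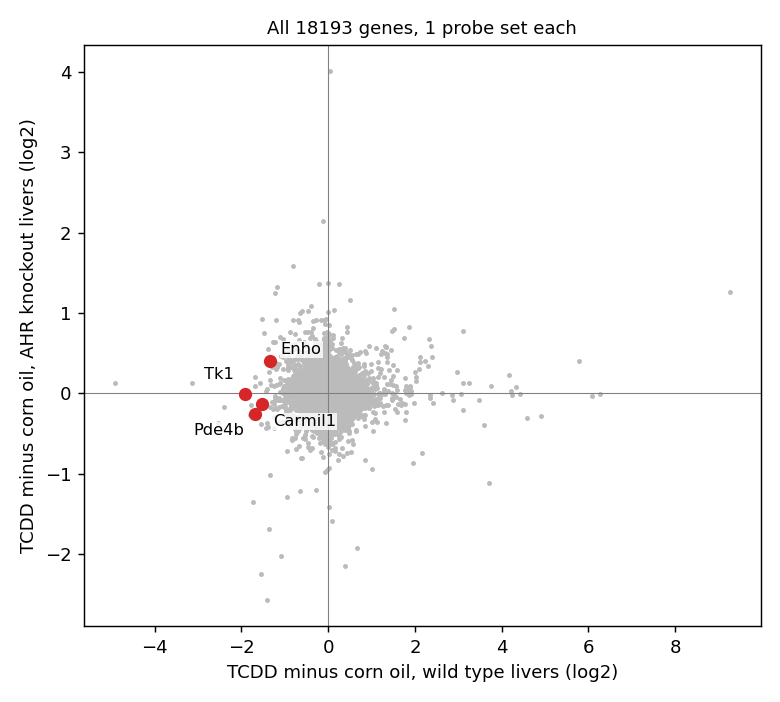
Difference between TCDD and corn oil (log2) in wild type livers (horizontal) and AHR knockout livers (vertical) for 18193 genes (grey) and the 4 genes (red). The 4 lie between -1.92 and -1.34 on the horizontal axis and between -0.25 and 0.41 on the vertical axis.

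Arrays were scanned on 3 days, and no group was confined to 1 day. Of the knockout arrays, corn oil had 2 on the first day and 1 on the second. Knockout TCDD had 0 on the first, 2 on the second and 1 on the third. Scan day thus went partly with dose in knockout livers. The arrays of the third day were knockout TCDD replicate 3 and wild type corn oil replicate 5. Their deviations from their group means, over all probe sets, had a correlation of 0.43. With scan day as a block the wild type differences were -1.96 for Tk1, -1.36 for Enho, -1.70 for Pde4b and -1.42 for Carmil1. Within the first day, with 1 corn oil and 2 TCDD arrays, they were -1.84, -1.55, -2.40 and -1.12 in the same order of Tk1, Enho, Pde4b and Carmil1. Within the second day, with 3 corn oil and 4 TCDD arrays, they were -2.04 for Tk1, -1.32 for Enho, -1.36 for Pde4b and -1.57 for Carmil1. The third day held no wild type TCDD array. For the difference of effects, the scan day block gave 2.08 for Tk1, 1.80 for Enho, 1.54 for Pde4b and 1.19 for Carmil1. Without wild type TCDD replicate 6, the array with the wide Gapdh gap, the difference was -1.97 for Tk1, -1.36 for Enho, -1.70 for Pde4b and -1.36 for Carmil1.

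Relatives of Tk1, Pde4b and Carmil1 were examined, 5 genes in all, and limma called none of them in wild type livers; Pde4c and relatives of Enho were not analysed here. At an unadjusted p under 0.05 Tk2 alone differed. Tk2, the mitochondrial enzyme that phosphorylates thymidine, had a log2 difference with TCDD of -0.29 ± 0.13 (SE) in wild type and -0.37 ± 0.17 in knockout livers. The phosphodiesterases Pde4a and Pde4d, which break down cyclic AMP as Pde4b does, differed by 0.002 ± 0.008 and 0.20 ± 0.20. Carmil2 and Carmil3, the other members of the Carmil1 family, differed by 0.01 ± 0.01 and -0.04 ± 0.06. Except for Tk2, with a mean level of 7.24, these relatives read at most 3.11 on average, which left little room to see a fall.

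Genes of the pathways around the 4 members were taken from lists chosen with earlier results of these data known, so counts over the lists are descriptions. The listed genes were examined in wild type livers with the same limma model, where 3.75% of all genes were called higher and 2.56% lower. Of 23 genes of deoxynucleotide supply or pyrimidine breakdown, the setting of Tk1, Nme1 rose and 2 fell. Differences in this list ran from -0.80 to 1.005 with a median of 0.01, and 11 of the 23 had an unadjusted p under 0.05, where 16.8% of all genes did. Nme1, a nucleoside diphosphate kinase, rose by 0.49 ± 0.09 on the log2 scale (limma, adjusted p = 0.0034). Shmt1, which feeds the folate step of thymidylate synthesis, had a difference of -0.48 ± 0.09 (limma, adjusted p = 0.0081), and Dpyd, which breaks down pyrimidines, one of -0.27 ± 0.07 (limma, adjusted p = 0.035). Of 31 genes of DNA replication and division, none fell by the limma test, and 7 differed in either direction at an unadjusted p under 0.05. Gmnn, whose product geminin blocks the licensing of replication origins, rose by 1.16 ± 0.08 (limma, adjusted p = 1.1e-06), and its TCDD effect was 0.96 ± 0.14 smaller in knockout than in wild type (limma, adjusted p = 0.0031). The log2 of the summed level of these 31 genes ran from 10.82 to 11.13 with corn oil and from 10.96 to 11.25 with TCDD in wild type livers, so these groups overlapped, and 11 of the 31 genes read below the median of all values. In knockout livers that sum was 11.31 to 11.37 with corn oil and 11.07 to 11.42 with TCDD.

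Of 14 other cyclic nucleotide phosphodiesterases 1 rose and 1 fell, and these 2 were all that had an unadjusted p under 0.05. Pde2a, a phosphodiesterase stimulated by cyclic GMP, rose by 1.11 ± 0.15 (limma, adjusted p = 0.00047), opposite in sign to Pde4b. Pde3b, through which insulin lowers cyclic AMP, had a difference of -0.33 ± 0.06 (limma, adjusted p = 0.0052). Of 28 genes that make or answer cyclic AMP, 1 rose and 3 fell, and 9 had an unadjusted p under 0.05. Pck1, a gluconeogenic enzyme gene induced by cyclic AMP, had a difference of -1.68 ± 0.28 (limma, adjusted p = 0.0022), and Prkaca, a catalytic subunit of protein kinase A, one of -0.36 ± 0.06 (limma, adjusted p = 0.0023). The subunit gene Prkacb also fell, by 0.25 ± 0.07, and Adcy9, an adenylate cyclase, rose by 0.40 ± 0.09 (limma, adjusted p = 0.025 for Adcy9). Among 25 genes of actin capping and branching, the setting of Carmil1, Washc2 rose by 0.55 ± 0.08 (limma, adjusted p = 0.0005) and Myo1e had a difference of -0.44 ± 0.11 (limma, adjusted p = 0.029). Washc2 is a subunit of the WASH complex, which promotes branched actin on endosomes, and Myo1e is a membrane-bound myosin.

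Of 20 other peptides and hormones secreted by liver, as adropin is, limma called none higher and 6 lower, and 7 had an unadjusted p under 0.05, with a median difference of -0.11 against 0.01 over all genes. The hepcidin genes Hamp2 and Hamp had differences of -2.54 ± 0.39 (limma, adjusted p = 0.0013) and -1.68 ± 0.31 (limma, adjusted p = 0.0044). The product of Hamp limits iron release. Agt, the angiotensin precursor, had a difference of -0.49 ± 0.10 (limma, adjusted p = 0.013). Of 10 nuclear receptors and other genes tied to Enho, Srebf1, a driver of fat synthesis, had a difference of -1.25 ± 0.21 (limma, adjusted p = 0.002). Gpr19, reported as a receptor for adropin, rose from a low level of 4.17 to 4.45 (limma, adjusted p = 0.034). Calls of Dpyd, Adcy9, Myo1e and Gpr19 were lost when certain single arrays were left out, and those of Dpyd, Adcy9, Myo1e, Gpr19 and Agt under other settings of the fit. In knockout livers none of the 151 measured pathway genes was called by limma with TCDD, and 0 to 4 genes of each list had an unadjusted p under 0.05. Without knockout TCDD replicate 1, 0 pathway genes and 0 cell markers were called.

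Markers of liver cell types moved less than the 4 genes. In wild type livers with corn oil the hepatocyte markers Fgb and Apoa1 averaged 15.43 and 15.74, near the highest value on any array, 15.95. Shifts at such levels may read too small. By limma 5 of 10 hepatocyte markers fell, Cps1 by 0.27, Fgb by 0.26 and Apoa1 by 0.14 on the log2 scale, and the log2 of their summed level was 18.29 to 18.34 with corn oil and 18.19 to 18.25 with TCDD in wild type livers. Of 10 endothelial markers 3 fell, Clec4g by 0.55, Stab2 by 0.35 and Stab1 by 0.35, and their sum was 11.56 to 11.80 with corn oil and 11.46 to 11.58 with TCDD. In knockout livers the hepatocyte sum was 18.36 to 18.42 with corn oil and 18.25 to 18.40 with TCDD. The endothelial sum there was 11.55 to 11.77 with corn oil and 11.56 to 11.66 with TCDD. Of 9 stellate cell and fibroblast markers only Rgs5 was called, with a fall of 0.48. Differences in that list ran from -0.48 to 0.38 with a median of -0.03. Their sum in wild type livers was 11.62 to 12.22 with corn oil and 11.87 to 12.25 with TCDD, so these groups overlapped. None of the markers of Kupffer cells and macrophages, T and NK cells, B cells, neutrophils, bile duct cells or erythroid cells was called by limma, with 1 of them, an erythroid marker, at an unadjusted p under 0.05. The call of Stab1 was lost when certain single arrays were left out, those of Stab1 and Cps1 under other settings of the fit, and Ahsg counts both as a hepatocyte marker and as a secreted peptide. Most lymphocyte and neutrophil markers read below the median of all values, 6 of 8 for T and NK cells, 5 of 6 for B cells and 5 of 7 for neutrophils. The part of these shifts in the falls of Tk1, Enho, Pde4b and Carmil1 was not tested.

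**Figure D5:**
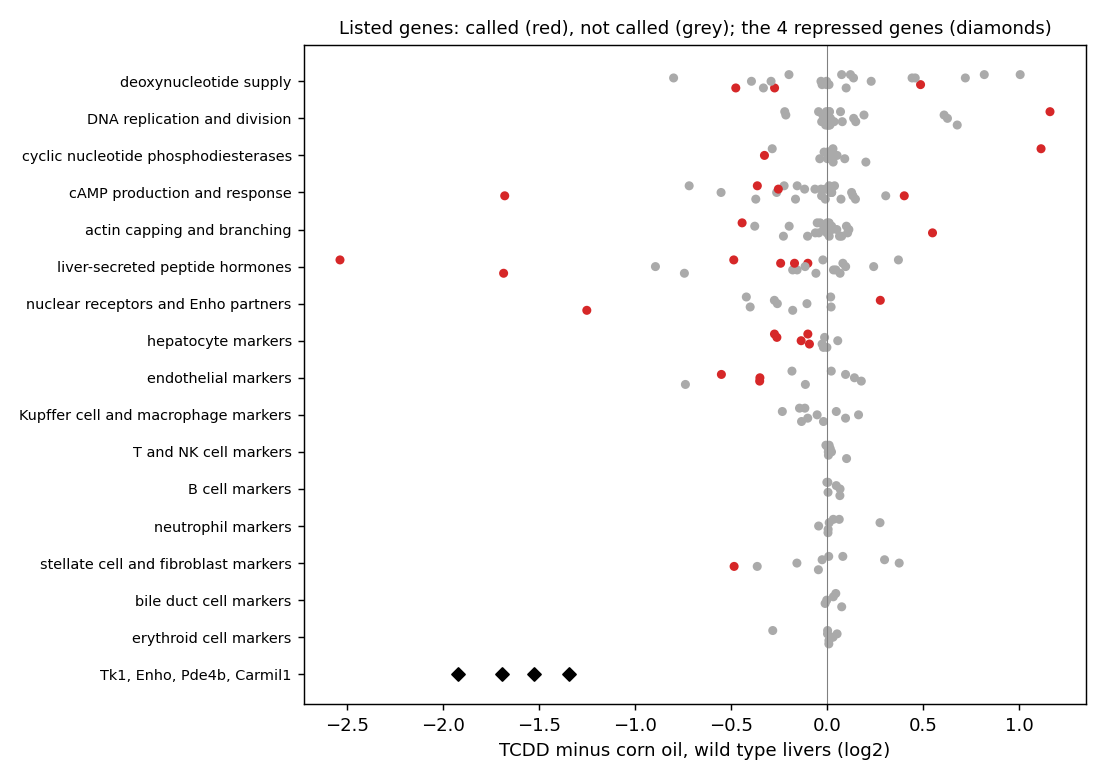
Difference between TCDD and corn oil (log2) in wild type livers for each listed gene (red if called by limma, grey if not), by list, with the 4 genes as diamonds. Hamp2 at -2.54, Hamp at -1.68 and Pck1 at -1.68 are the called genes of the lists that lie in the range of the 4 genes or below it.

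Genes with the profile most like each member were found by the root mean square difference over the 17 arrays, each gene centred on its own mean. For Tk1, whose own spread about its mean was 1.19, they were Gas2 at 0.434, Sdc1 at 0.476, Pck1 at 0.536, Ablim3 at 0.551 and Hamp at 0.566. For Enho, with a spread of 0.776, they were Elovl2 at 0.306, Lyst at 0.323, Kynu at 0.341, Shb at 0.348 and Dexi at 0.348. Elovl2, a fatty acid elongase, differed with TCDD by -0.86 in wild type and 0.16 in knockout livers, and Lyst, a lysosomal trafficking gene, by -1.36 and 0.27. The genes nearest Enho were thus lower with TCDD in wild type and level or higher in knockout, as the measure requires.

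For Pde4b, with a spread of 1.41, the nearest genes were farther off, from Hamp2 at 0.708 and Got1 at 0.723 to Sdc1 at 0.725, Nnmt at 0.734 and Gas2 at 0.745. Got1, an aspartate transaminase, and Nnmt, which methylates nicotinamide, were not called with TCDD in wild type, at -0.57 and -0.65, and were 2.46 and 2.74 higher in knockout livers with corn oil. Sdc1 and Gas2 were near both Tk1 and Pde4b. For Carmil1, with a spread of 0.734, the nearest were Hsd3b2 at 0.411, C730036E19Rik at 0.430, Slc17a2 at 0.440, Saa4 at 0.455 and Mlxipl at 0.458. Hsd3b2, a steroid dehydrogenase, differed with TCDD by -1.29 in wild type and -0.11 in knockout livers, and Slc17a2, a phosphate transporter, by -1.34 and -0.18. None of the 5 genes nearest Carmil1 was among the 5 nearest another of the 4 genes.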

How the data were processed

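Liver RNA of 17 samples in 4 groups was measured on Affymetrix whole-genome mouse arrays, and groups and replicate numbers came from the sample titles. The authors deposited normalized log2 values for each probe set on each array. Both RMA and GCRMA appear beside affy 1.5.8 in the submitters' processing notes, and which method made the table is not stated there. Normalization across arrays hides a change shared by most genes, and the number of arrays limits the precision. The scan day of each array was read from its deposited scan settings.

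From 45101 probe sets 64 controls were left out. Of the probe sets naming a gene alone, the one with the highest mean stood for it. A mean per group was fitted by lmFit and eBayes of limma 3.58.1 (R 4.3.3, 13 residual degrees of freedom, no filter), with Benjamini-Hochberg adjustment over 45037 probe sets. Errors of levels are SD and of differences SE. The members, lists and pathways were chosen with earlier results of these data known. The named genes are the members, Ahr, Cyp1a1, close relatives, the 5 genes of nearest profile per member and up to 3 called genes per list with the largest difference; Prkacb was named after its value was seen. Alternatives were quantile normalization, median centring, a trended and robust spread, array weights, a filter on dim probe sets, scan day as a block and within days, a replicate block, fewer groups, other probe sets and each array left out. Of 20 pairs of arrays with the same number, 2 had a correlation of deviations over 0.1, and the correlations ran from -0.27 to 0.13. The numbers were therefore not treated as pairs in the main fit, though this measure cannot exclude pairing. The code was tested on simulated data.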

Additional observations from a re-analysis of the deposited data

Results flagged for a closer look

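Single arrays lay far from the rest of their group in 8 of 24 groups examined, and all 8 were at the dim probe sets of Enho and Pde4b. Of these, 6 are wild type TCDD replicate 6, the array with the wide Gapdh gap: Enho read 1.52 at 1433382_at and 2.71 at 1454585_at, and Pde4b read 2.32 at 1442700_at, 2.86 at 1444731_at, 3.51 at 1446577_at and 2.32 at 1447718_at, each the highest of its group. Wild type corn oil replicate 3 was the lowest of its group for Pde4b at 1442700_at, with 2.27, and the highest for Enho at 1454585_at, with 2.97. The 24 are the wild type groups at all 12 probe sets, bright and dim. The knockout groups of 3 arrays are too small for this measure and were not examined. In the wild type groups no bright probe set of the 4 genes showed such an array.

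The TCDD effect differed between genotypes by the interaction term (knockout minus wild type, log2) for Tk1 by 1.92 and for Enho by 1.75 and 2.06 at its bright probe sets, values that chose these genes. It also differed for Gmnn, at -0.96, which rose with TCDD in wild type livers. Among the genes of nearest profile it differed for Gas2 by 1.11, Sdc1 by 1.003, Elovl2 by 1.02, Lyst by 1.63, Kynu by 0.75, Shb by 1.38, Dexi by 1.27, Hsd3b2 by 1.18 and Slc17a2 by 1.17, and these were picked by their likeness to the members.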

How the results depend on the processing

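Of 148 values of the members under another processing, fit or scan day, leaving aside other probe sets and single arrays left out, 132 kept their direction and side of the threshold or moved by less than the replicate spread. The causes of the changes below were not tested, beyond the fewer arrays within a scan day. In wild type, TCDD against corn oil was no longer called for Tk1 (-1.84), Enho (-1.55) and Pde4b (-2.40) within scan day 1, for Pde4b (-1.36) and Carmil1 (-1.57) within day 2, and for Pde4b with the replicate block (-1.70) or only the 2 groups (-1.69). Without each array in turn Pde4b ran from -1.90 to -1.39, and its call was lost without wild type corn oil replicate 1 (-1.53). The difference of effects was not called within day 2 for Tk1 (1.97) and Enho (1.66), fell to 0.88 with array weights for Carmil1, and ran from 1.14 to 1.84 for Carmil1 with arrays left out. The genotype difference of Tk1 was not called with quantile normalization (0.76), scan day block (0.70), day 1 (0.65), day 2 (0.83) or replicate block (0.72), nor without any 1 of 7 arrays (0.74 to 0.87). That of Pde4b was 0.83 within day 1 and 1.36 to 1.68 with arrays left out, being called without wild type TCDD replicate 5.

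At other probe sets the wild type difference was 0.00086 (1433382_at) and -0.066 (1454585_at) for Enho, and -0.0013 (1442700_at), 0.018 (1444731_at), 0.030 (1446577_at) and 0.0078 (1447718_at) for Pde4b. The knockout difference of Enho was -0.0060 and -0.023 at its dim pair, and its difference of effects -0.0069 and 0.043. In the same order the Pde4b difference of effects was 0.023, -0.040, -0.099 and -0.024, and its genotype difference 0.67, 0.0077, 0.019 and 0.0053, against 1.43 at 1422473_at, which was called. The genotype difference of Enho was 0.38 at 1452893_s_at.

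Of probe sets called, wild type TCDD had 1882, against 456 within day 1 and 564 within day 2. Knockout TCDD had 6, against 51 with array weights, 2 with the filter on dim probe sets, 1 with scan day block, 255 within day 2, and 0 with the replicate block or only the 2 groups, and 1 to 34 with arrays left out. Genotype had 654, against 1310 with array weights, 294 within day 1, 347 with the replicate block and 404 to 780 with arrays left out. The difference of effects had 501, against 1071, 239 with scan day block, 310 within day 2 and 333 to 552; both low ends were without knockout corn oil replicate 1. The replicate block changed no other call of the members. Pathway genes called in wild type were 20, against 4 within each day and 13 with the replicate block, and cell markers 9, against 0 within day 1, 5 within day 2 and 5 with the replicate block. Calls of Adcy9, Dpyd, Gpr19, Mlxipl, Myo1e, Saa4 and Stab1 were lost without 1 of 3 to 11 arrays. Under other settings 344 of 426 values of named genes kept their side of the threshold or moved within the spread, 76 lost the call, 1 gained it and 5 moved. Of the 76, 53 were within a scan day, for 35 genes, and 23 under other settings, for Adcy9, Agt, Cps1, Dpyd, Gpr19, Mlxipl, Myo1e, Saa4 and Stab1. Leaving out knockout TCDD replicate 1 for the lists was chosen after seeing the data. Dim signal limits the Pde4 and Carmil relatives.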
